A study of Mus musculus with 12 samples.

Results

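The platelet-derived growth factor (PDGF) system was followed through 7 genes, chosen by name as the receptors, the receptor-like gene and the ligands: Pdgfra, Pdgfrb, Pdgfrl, Pdgfa, Pdgfb, Pdgfc and Pdgfd. All 7 were measured, each by 1 transcript cluster (the probes of a gene summarised as 1 value), among 19938 genes with a cluster of their own. The cells were fibro/adipogenic progenitors (FAPs), mesenchymal cells of skeletal muscle that can form fibroblasts and adipocytes, taken from uninjured hindlimbs of wild-type male C57/Bl6 mice aged 8 to 12 weeks. They were cultured with 10% fetal bovine serum and 10% horse serum, and transfected with an antisense oligonucleotide (AMO) at 10 µM. After 48 hours they were transfected again with or without the ligand PDGF-AA for another 48 hours. Without PDGF-AA means here that none was added. Affymetrix Mouse Gene 1.0 ST arrays then measured total RNA in 6 groups of 2 replicates, and each replicate pooled cells of 2 mice.

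The groups were control AMO, pA AMO and 5'ss AMO, each without PDGF-AA (0 uM in the labels) and with it (50 uM in the labels, a high dose for a growth factor, which could not be checked here). The pA AMO is directed at a polyadenylation site within an intron of Pdgfra and the 5'ss AMO at a 5' splice site labelled as intronic. Every group received an AMO, so no untransfected cells were compared, and every difference is between transfected cultures. RNA came from whole cultures, so fewer cells of a type and less RNA per cell cannot be told apart.

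PDGF ligands are secreted dimers of A, B, C or D chains that bring pairs of receptor tyrosine kinases together at the cell surface. PDGF-AA acts through PDGFRα, the protein of Pdgfra, which also marks FAPs in muscle, while the B and D chains are the main partners of PDGFRβ, which is abundant in pericytes and fibroblasts. The C and D chains carry a CUB domain that extracellular proteases must remove before the ligand is active. In muscle, PDGFRα signalling in FAPs is known for its part in fibrosis, and a transcript of Pdgfra cut short within an intron encodes a receptor without its kinase.

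Values are log2 expression, on which a difference of 1 is a doubling, and levels are compared only within a gene, since probes of different genes are not on a common scale. All 13 measured FAP and fibroblast markers lay above the level of 6.102 that marks off the dimmest 40% of clusters, and the mean of that list ran from 10.74 to 10.93 over the arrays. Among genes listed as markers of other cells, 7 of 11 for smooth muscle and pericytes and 10 of 12 myogenic were above that level. So were 3 of 8 endothelial, 5 of 10 macrophage and leukocyte and 4 of 5 Schwann cell markers. The last 5 were Pmp22 (mean 12.68), Ngfr (7.16), Sox10 (6.33), Mbp (6.12) and S100b (6.02). Whether such cells were the source of these values was not tested. The 7 PDGF genes were above the level of 6.102 too by their means, and of the 7 only Pdgfb came close to it.

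Promoter sequences are shown for 3 members: Pdgfra, whose RNA the oligonucleotides target, and Pdgfc and Pdgfd, ligand genes whose averaged differences with PDGF-AA had opposite signs. Each is the 250 bases just upstream of the gene's RefSeq start in mouse assembly GRCm38.p6, on the plus strand, 5′ to 3′, with motif matches in capitals. Pdgfra is at chr5:75152001-75152250, Pdgfc at chr3:81036166-81036415 and Pdgfd at chr9:6168236-6168485.
Pdgfra: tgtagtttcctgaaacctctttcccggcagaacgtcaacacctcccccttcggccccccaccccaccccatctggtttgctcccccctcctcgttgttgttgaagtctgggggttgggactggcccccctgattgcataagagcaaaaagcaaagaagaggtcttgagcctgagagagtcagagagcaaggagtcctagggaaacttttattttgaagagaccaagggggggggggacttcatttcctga
Pdgfc: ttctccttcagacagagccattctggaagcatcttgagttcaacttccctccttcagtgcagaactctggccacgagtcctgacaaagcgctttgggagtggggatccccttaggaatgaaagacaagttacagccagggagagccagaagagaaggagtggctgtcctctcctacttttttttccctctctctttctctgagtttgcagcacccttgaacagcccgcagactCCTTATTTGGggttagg
Pdgfd: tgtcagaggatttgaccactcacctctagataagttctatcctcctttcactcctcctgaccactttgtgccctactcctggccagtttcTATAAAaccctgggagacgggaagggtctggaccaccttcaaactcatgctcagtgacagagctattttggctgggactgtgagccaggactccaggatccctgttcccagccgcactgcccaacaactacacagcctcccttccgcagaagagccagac

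Both strands were searched for TATAAA (the TATA box), GGGCGG (the GC box), ACGTG (a form of the core of hypoxia response elements) and the CArG box, which serum response factor binds. The Pdgfc window held a CArG box from 17 to 8 bases before the start, a motif found in 1.47% of the 32851 promoters of this length. The Pdgfd window held 1 TATAAA, from 160 to 155 bases before the start, as did 12.4% of all promoters at some position. No match was found in the Pdgfra window, which says only that these letters are not in it, and the 2 Pdgfa windows held 1 and 2 copies of GGGCGG, present in 32.7% of promoters. ACGTG, present in 16.6% of promoters, was in none of the 5 windows of these 4 members. Other forms of that core, such as GCGTG, were not searched, so their absence is not shown. A match is a stretch of letters and not a measured binding site.

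Pdgfra was the steadiest member, and its highest values were the 4 arrays with 5'ss AMO. In replicates 1 and 2 without PDGF-AA, control AMO gave 12.75 and 12.75, pA AMO 12.72 and 12.80, and 5'ss AMO 12.90 and 12.92. Where PDGF-AA was present, the same AMOs gave 12.75 and 12.78, 12.75 and 12.81, and 12.89 and 12.84. All 12 arrays thus lay within 0.20, and the 5'ss arrays did not overlap those with control or pA AMO, which overlapped each other. The residual SD of Pdgfra was 0.035 against a median of 0.142 over all clusters, and only 0.794% of clusters varied as little.

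**Figure D1:**
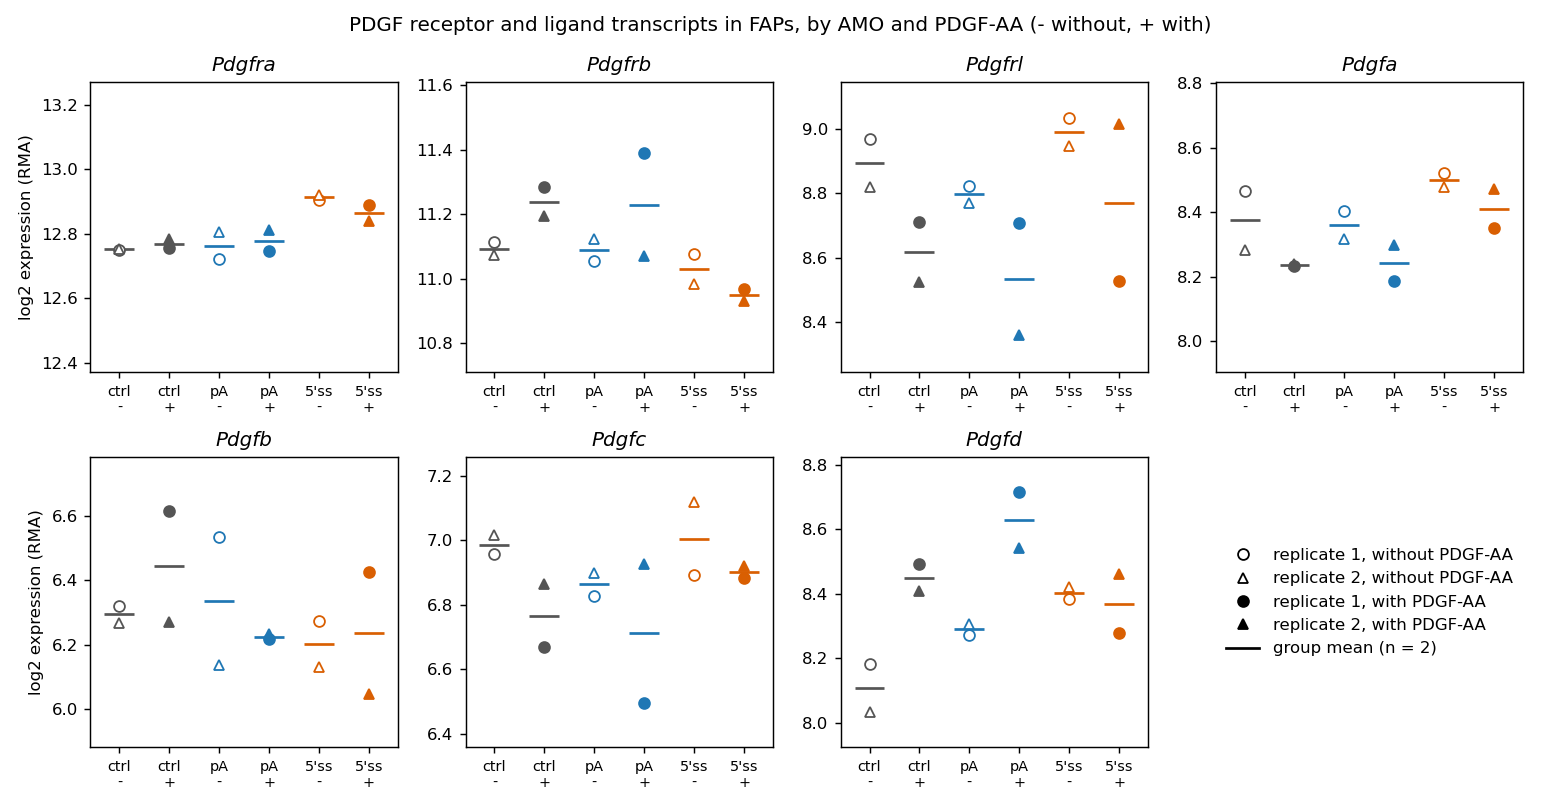
Log2 expression (vertical axis, RMA) of each PDGF gene by AMO and PDGF-AA (horizontal axis, ctrl for control AMO, minus without and plus with PDGF-AA). Circles are replicate 1, triangles replicate 2, filled symbols carry PDGF-AA and lines are means of 2 arrays. The 4 Pdgfra values with 5'ss AMO, 12.84 to 12.92, lie above the other 8, and the lowest Pdgfd values, 8.18 and 8.03, are those with control AMO without PDGF-AA.

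The comparison of AMOs asks whether Pdgfra RNA differed when its intronic sites were targeted. Averaged over PDGF-AA, Pdgfra was higher with 5'ss than with control AMO by 0.13 (SE 0.062, 95% interval -0.01 to 0.27, 4 against 4 arrays). It did not pass in limma, with an adjusted p of 0.995 over 21789 clusters. With the replicate number as a block the interval was 0.02 to 0.24, which leaves out 0, and the adjusted p 0.354. Groups failed to overlap for 2.97% of clusters in this comparison, and for 1 of the 7 members, Pdgfra. Pdgfra was also the 1 member whose arrays did not overlap between pA and 5'ss AMO, as for 2.65% of clusters. Within replicates the difference was 0.16 and 0.17 without PDGF-AA, and 0.13 and 0.06 with it.

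Moderation in limma draws each cluster's spread towards that of all clusters, which widened the error of Pdgfra. With its own spread alone, an alternative chosen after this spread was seen, the SE was 0.024 and the unadjusted p from limma's fit was 0.00192, with an adjusted p of 0.55. Pdgfra with pA AMO was close to control, at 0.01 on average (95% interval -0.13 to 0.15), and pA minus 5'ss was -0.12 (95% interval -0.26 to 0.02, or -0.23 to -0.01 with the block). The sign of the small difference between pA and control AMO turned under repeated quantile normalization. Full-length and intronically polyadenylated Pdgfra transcripts are not separated by the cluster's value, so it does not check what either AMO did to the transcript.

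PDGF-AA left Pdgfra, its own receptor's gene, within 0.12 of its level at the limits of the 95% interval. The averaged change was -0.005 (interval -0.12 to 0.11, 6 against 6 arrays), and its sign was positive under repeated quantile normalization. By AMO the change was 0.018 with control, which was -0.034 under median centring, 0.015 with pA and -0.048 with 5'ss. Group means ran in the order 5'ss AMO without PDGF-AA, 5'ss with, pA with, control with, pA without and control without. The last 4 lay between 12.75 and 12.78 and did not differ beyond the SD of 0.058 in pA AMO without PDGF-AA, the largest of any group.

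Pdgfrb encodes PDGFRβ, the receptor for B and D chains, and its lowest group means were those with 5'ss AMO. Without PDGF-AA, replicates 1 and 2 read 11.11 and 11.07 (control), 11.06 and 11.12 (pA), and 11.08 and 10.98 (5'ss). After PDGF-AA they read 11.28 and 11.19, then 11.39 and 11.07, then 10.97 and 10.93. The 5'ss arrays with PDGF-AA were the lowest of all 12, and the highest, 11.39, was a single pA array whose replicate was at 11.07.

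Averaged over PDGF-AA, Pdgfrb was lower with 5'ss than with control AMO in 4 of 4 within-replicate comparisons, at -0.18 (SE 0.081, 95% interval -0.36 to 0.00). With the block the interval was -0.33 to -0.03. The adjusted p in limma was 0.995, and 0.346 with the block, and the groups overlapped. All 4 comparisons were negative for 9.07% of clusters and 2 members, and of 1 sign for 16.9% and 4 members. With PDGF-AA present the difference was -0.29 (SE 0.115, interval -0.54 to -0.03) and the arrays did not overlap, as for 30.2% of clusters there and 4 of the 7 members. Its unadjusted p in limma was 0.0302, in a comparison where 6.00% of clusters and 1 member were under 0.05, and its adjusted p 0.823, or 0.214 with the block, the smallest adjusted p of any member in that fit. Without PDGF-AA the same difference was -0.064 (interval -0.32 to 0.19).

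The PDGF-AA change of Pdgfrb averaged 0.07 (95% interval -0.08 to 0.22), with 0.145 for control AMO, 0.142 for pA AMO and -0.079 for 5'ss AMO. The value for pA AMO rested on replicate 1 with PDGF-AA, without which it was -0.018 and the average over AMOs 0.016. Pdgfrb is also a pericyte gene, so the 11 smooth muscle and pericyte markers are set beside it. Their mean ran from 6.64 to 6.66 with control AMO and PDGF-AA, where Pdgfrb was highest by mean, and from 6.70 to 6.92 with control AMO alone. The 5'ss AMO alone gave 6.81 to 6.87, and both 5'ss arrays with PDGF-AA, where Pdgfrb was lowest, gave 6.85. Across the pA arrays it was 6.79 to 6.99 without and 6.70 to 6.79 with PDGF-AA. Rgs5 (mean 4.93), Higd1b (4.59), Cnn1 (5.25) and Myh11 (5.97) were below the dim mark. Acta2 (9.28), Abcc9 (8.91), Des (8.11), Kcnj8 (7.52), Notch3 (7.09), Cspg4 (6.65) and Mcam (6.47) were above it. For 5'ss against control AMO averaged over PDGF-AA, 6 of the 11 lay above and 5 below 0 (median 0.062), and the part of these cells in the Pdgfrb values was not tested.

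Pdgfrl encodes a secreted protein that resembles the extracellular part of PDGF receptors and has no kinase. It was lower with PDGF-AA in 5 of 6 within-replicate comparisons. The share of all clusters with 5 of 6 was not counted, so this count, for any gene given here, is a description. With control AMO Pdgfrl read 8.97 and 8.82 without PDGF-AA and 8.71 and 8.52 with it. The pA arrays read 8.82 and 8.77 without and 8.71 and 8.36 after PDGF-AA, and the 5'ss arrays 9.03 and 8.95 without and 8.53 and 9.01 after it. The groups with and without PDGF-AA did not overlap for control or pA AMO. The same held for 31.0% of clusters and 6 members under control AMO, and for 23.7% and 3 members under pA AMO. The 2 replicates under 5'ss AMO and PDGF-AA lay far apart.

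The averaged change of Pdgfrl was -0.25 (SE 0.096, 95% interval -0.47 to -0.04), the largest in size among the 7 genes. Its unadjusted p in limma was 0.0249 and its adjusted p 1, or 0.513 with the replicate block. Leaving out any 1 array gave -0.334 to -0.172, both extremes from the 5'ss arrays that received PDGF-AA. The group means were in the order 5'ss, control and pA AMO both without and with PDGF-AA, with pA minus 5'ss at -0.215 (interval -0.48 to 0.05, and -0.337 to -0.094 with single arrays left out). In the presence of PDGF-AA this order rested on single arrays. Without 5'ss replicate 2 there, 5'ss minus control was -0.089 and pA minus 5'ss 0.006, and without pA replicate 2 there, pA minus control was 0.092. These neighbours in the order did not differ beyond the SD of up to 0.344 within groups.

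Pdgfa encodes the A chain, the same chain that was added as PDGF-AA. Its RNA was lower with PDGF-AA in 6 of 6 within-replicate comparisons, a pattern met by 2.30% of all clusters and by 1 of the 7 members. A single sign in all 6, up or down, was met by 3.99% of clusters. Without PDGF-AA it read 8.47 and 8.28 (control), 8.40 and 8.32 (pA) and 8.52 and 8.48 (5'ss). After PDGF-AA it read 8.23 and 8.24, 8.19 and 8.30, and 8.35 and 8.47. The changes were -0.24, -0.22 and -0.17 in replicate 1 and -0.04, -0.02 and -0.01 in replicate 2, in the order control, pA and 5'ss, so replicate 1 carried most of each.

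The averaged change of Pdgfa was -0.12 (SE 0.059, 95% interval -0.25 to 0.02), with an adjusted p in limma of 1, or 0.632 with the block. With 5'ss AMO Pdgfa was above control AMO in 4 of 4 within-replicate comparisons, by 0.15 (SE 0.072, interval -0.01 to 0.31, limma adjusted p 0.995). With the block the interval was 0.01 to 0.29 and the adjusted p 0.39. All 4 were positive for 7.78% of clusters and for 2 members, Pdgfra and Pdgfa. It was above pA AMO in 4 of 4 as well, as for 10.0% of clusters and 2 members, with pA minus 5'ss at -0.155 (interval -0.31 to 0.01, or -0.30 to -0.01 with the block). Both 5'ss groups had the highest Pdgfa means of the 6, and pA minus control was -0.005, a sign that median centring turned.

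Pdgfb, the B chain, was near the dim mark, above it in 11 of 12 arrays. Without PDGF-AA the arrays read 6.32 and 6.27 (control), 6.53 and 6.14 (pA) and 6.27 and 6.13 (5'ss). After it, the arrays read 6.62 and 6.27, 6.22 and 6.23, and 6.43 and 6.05. The averaged PDGF-AA change was 0.02 (95% interval -0.19 to 0.24), and it ran from -0.041 to 0.09 when single arrays were left out. The SD within a group reached 0.279, and the group means lay between 6.202 and 6.444. Averaged over PDGF-AA, 5'ss minus control AMO was -0.15 (SE 0.119, 95% interval -0.41 to 0.12), and the groups overlapped. The difference was negative in 4 of 4 within-replicate comparisons, as for 9.07% of clusters and 2 members, Pdgfrb and Pdgfb. The adjusted p in limma was 0.995, or 0.477 with the block. With PDGF-AA present, pA minus control was -0.22 (interval -0.59 to 0.16) and the arrays did not overlap. That held for 31.5% of clusters and 2 members.

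Pdgfc, a CUB-domain ligand that acts through PDGFRα, was lower with PDGF-AA in 5 of 6 within-replicate comparisons. Arrays without PDGF-AA read 6.96 and 7.02 (control), 6.83 and 6.90 (pA) and 6.89 and 7.12 (5'ss). Those that received it read 6.67 and 6.86, 6.50 and 6.93, and 6.88 and 6.92. Replicate 2 was the higher array in all 6 groups, by 0.17 on average, which held for no other member and for 31.0% of clusters in either direction.

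The averaged change of Pdgfc was -0.16 (SE 0.084, 95% interval -0.34 to 0.03, or -0.29 to -0.03 with the block), and its adjusted p in limma was 1, or 0.514 with the block. With control AMO the change was -0.22 and the arrays did not overlap, as for 31.0% of clusters and 6 members. For pA it was -0.15 and for 5'ss -0.10. Single arrays decided these sizes: leaving them out in turn gave -0.316 to -0.122 for control, -0.367 to 0.063 for pA and -0.218 to 0.011 for 5'ss. The pA value was positive when replicate 1 with PDGF-AA was omitted, and the 5'ss value when replicate 2 of the cultures without it was omitted. The average ran from -0.23 to -0.087. The groups with 5'ss AMO had the highest mean with and without PDGF-AA, but 5'ss minus control was 0.08 (interval -0.15 to 0.30).

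Pdgfd, the CUB-domain ligand of PDGFRβ, was the member with the smallest p for PDGF-AA. Its values with and without PDGF-AA were apart under control and pA AMO only. Such separation held for 31.0% of clusters and 6 members under control AMO, and for 23.7% and 3 members under pA AMO. With control AMO Pdgfd read 8.18 and 8.03 without PDGF-AA and 8.49 and 8.41 with it. The pA arrays read 8.27 and 8.31 without and 8.71 and 8.54 after PDGF-AA. Those of 5'ss AMO read 8.38 and 8.42 without and 8.28 and 8.46 after it, and so overlapped.

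**Figure D2:**
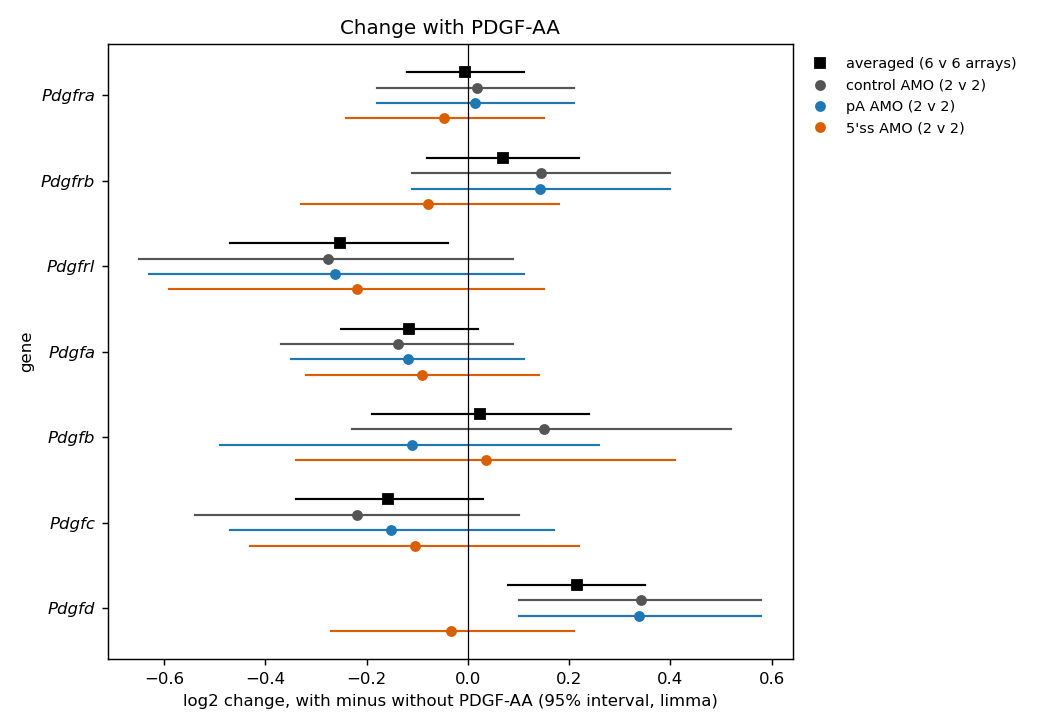
Log2 change with PDGF-AA (horizontal axis, with minus without) for each PDGF gene (vertical axis), averaged over AMOs (squares) and for each AMO (circles), with 95% intervals from limma. In this fit without the replicate block the averaged interval leaves out 0 for Pdgfrl, at -0.25, and Pdgfd, at 0.22, and no adjusted p passed.

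Averaged over AMOs, Pdgfd was higher with PDGF-AA by 0.22 (SE 0.062, 95% interval 0.08 to 0.35), in 5 of 6 within-replicate comparisons. The unadjusted p in limma was 0.00568 and the adjusted p 0.789, or 0.267 with the replicate block. Single AMOs gave 0.343 (SE 0.107, interval 0.10 to 0.58) with control, 0.339 (interval 0.10 to 0.58) with pA and -0.03 (interval -0.27 to 0.21) with 5'ss. Leaving out 1 array at a time kept the averaged change between 0.186 and 0.247.

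Markers of other cells were also compared with and without PDGF-AA within single AMOs, and 0 of them passed in limma. With pA AMO all 12 myogenic markers were lower (median -0.364), and 2 had an unadjusted p under 0.05 in limma, beside 2.37% of all clusters. The mean of the list was 7.05 to 7.58 without and 6.83 to 7.09 with PDGF-AA. Under control AMO 11 of the 12 were above 0 (median 0.085), and under 5'ss AMO 9 (median 0.133). Macrophage and leukocyte markers had a median of 0.227 under control AMO, with 6 of 10 above 0 and 4 below. An unadjusted p under 0.05 in limma, higher or lower, was found for 6 of 10, beside 4.81% of all clusters. That count was not split by direction, so it need not be the same 6. Their list mean was 5.80 to 5.87 without and 5.76 to 5.97 with PDGF-AA. Their medians were -0.075 with pA and -0.059 with 5'ss AMO. Of these markers Ptprc (mean 5.01), Adgre1 (4.12), Csf1r (5.75), Itgam (5.06) and Aif1 (4.88) were below the dim mark. Cd68 (7.23), Lyz2 (6.79), Cd14 (6.75), Cd3e (6.47) and Cx3cr1 (6.27) were above it. The part of these cells in the PDGF-AA values of the 7 genes was not tested.

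The difference between PDGF-AA effects, 5'ss minus control AMO, was -0.38 for Pdgfd (SE 0.152, 95% interval -0.71 to -0.04). Its unadjusted p in limma was 0.0324 and its adjusted p 1, or 0.552 with the block, and unadjusted p-values under 0.05 occurred for 2.95% of clusters there and for 1 of 7 members. Without PDGF-AA, Pdgfd was higher with 5'ss than with control AMO by 0.295 (interval 0.06 to 0.53, limma adjusted p 1), and with PDGF-AA the difference was -0.08. An unadjusted p under 0.05 was found without PDGF-AA for 2.07% of clusters and for 1 member, Pdgfd. The pA minus 5'ss difference of effects was 0.37 (interval 0.03 to 0.71, limma adjusted p 1), and pA minus control was -0.004 (interval -0.34 to 0.33), or 0.069 under median centring. These differences share arrays and are not separate evidence. The range left by single omitted arrays was -0.467 to -0.285 for 5'ss minus control.

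**Figure D3:**
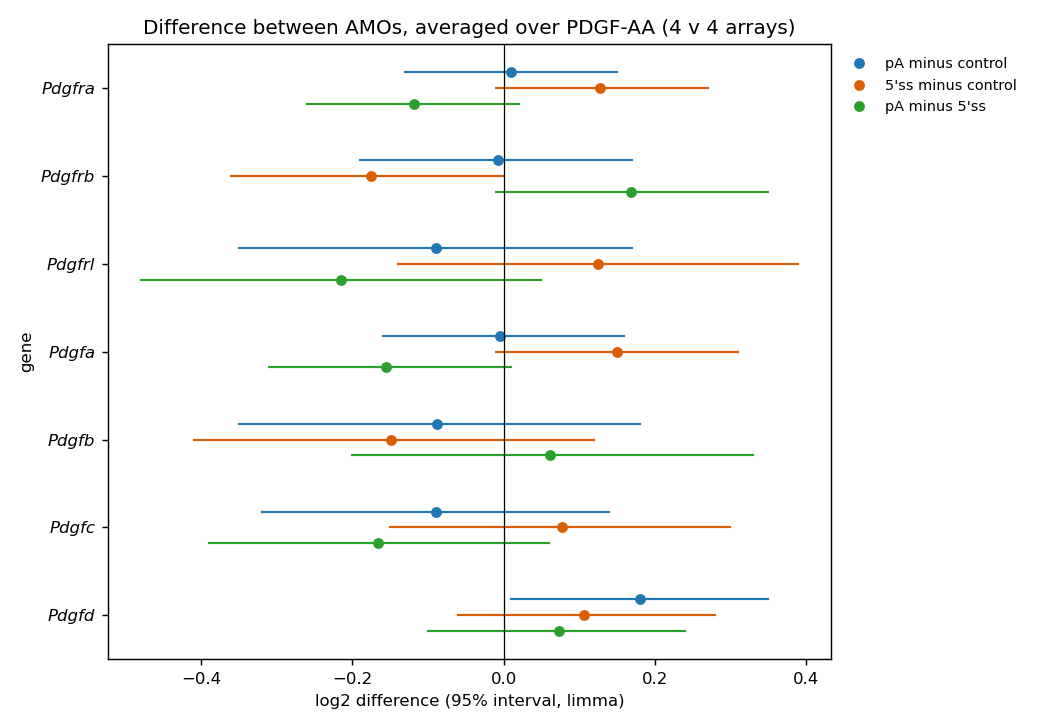
Log2 difference between AMOs averaged over PDGF-AA (horizontal axis, 4 against 4 arrays) for each PDGF gene (vertical axis), with 95% intervals from limma. For 5'ss minus control, Pdgfra (0.13) and Pdgfa (0.15) lie to the right of 0 and Pdgfrb (-0.18) to the left, with intervals that reach 0 in this fit without the replicate block and leave it out with the block, and the pA minus control interval leaves out 0 for Pdgfd only (0.18).

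Across all 16 comparisons, 0 of 7 members passed at an adjusted p under 0.05 in limma, where 0.00% of clusters passed, and 0 passed with the replicate block. At an unadjusted p under 0.05, 2 members stood out for PDGF-AA averaged over AMOs, Pdgfd and Pdgfrl, beside 3.39% of all clusters. The count was 1 for control AMO (4.81% of clusters), 1 for pA AMO (2.37%) and 0 for 5'ss AMO (1.64%). With the replicate block the averaged count was 3 of 7, Pdgfc with the others, beside 8.02% of clusters, and 1 (12.7%), 1 (5.90%) and 0 (4.53%) for the single AMOs. With the block, 0 members were called while 0.0964% of clusters passed for PDGF-AA averaged over AMOs. For 5'ss against control AMO these shares were 0.0138% averaged, 0.00459% without and 0.101% with PDGF-AA, and for pA against 5'ss AMO 0.0275%, 0.00459% and 0.0138%. The members' median change for PDGF-AA averaged over AMOs was -0.005, with 3 genes above and 4 below 0, beside a median of 0.001 over all clusters.

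Arrays with and without PDGF-AA did not overlap for 6 of 7 members under control AMO, 3 under pA AMO and 3 under 5'ss AMO. The same held for 31.0%, 23.7% and 19.6% of all clusters, and the mean change of Pdgfra among them, with control AMO, was only 0.018. Averaged over AMOs, 0 members and 0.280% of clusters did not overlap, and for pA against control AMO 0 members and 2.65%. Between AMOs, averaged over PDGF-AA, the unadjusted count was 1 for pA against control AMO (3.25% of clusters), namely Pdgfd at 0.18. It was 0 for 5'ss against control (4.80%) and 0 for pA against 5'ss (3.47%). With the replicate block it was 1 (9.00% of clusters) for pA against control and 3 (12.4%) for 5'ss against control, namely Pdgfra, Pdgfrb and Pdgfa. For pA against 5'ss it was 4 (8.51%), these 3 and Pdgfc. With PDGF-AA present and no block, pA against 5'ss AMO had 2 members at an unadjusted p under 0.05 in limma (3.83% of clusters). They were Pdgfrb at 0.28 and Pdgfd at 0.26, and neither passed after adjustment.

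Genes around the receptors were read from 4 lists with 84 clusters in all, and 0 passed in limma in any of the 16 comparisons, with or without the block. Unadjusted p-values under 0.05 for PDGF-AA averaged over AMOs occurred in 9 of the 84, beside 3.39% of all clusters. All 6 within-replicate changes were positive for 5 of the 84 clusters, beside 1.68% of all clusters, and all negative for 3, beside 2.30%. Of the 26 measured signal adaptors and effectors, 12 were above and 14 below 0, with a median of -0.010 and 0 at that unadjusted p. The kinase gene Map2k1 had the highest change, at 0.12, and Slc9a3r2, a scaffold that binds receptor tails, the lowest, at -0.10. Akt1, a kinase downstream of PI3K, was at -0.17 (SE 0.062) for 5'ss against control AMO, with a limma adjusted p of 0.995.

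Among 18 receptor turnover and phosphatase genes (25 clusters) the median was 0.019 and 2 had an unadjusted p under 0.05. Spry2, an inhibitor of receptor tyrosine kinase signalling that growth factors induce, was higher with PDGF-AA in 6 of 6 within-replicate comparisons, by 0.24 (SE 0.082, limma adjusted p 1, or 0.169 with the block). Its change was 0.31 with control, 0.34 with pA and 0.07 with 5'ss AMO. Tns3, an adhesion protein, had the lowest change, at -0.11. The phosphatase gene Acp1 has 5 clusters, and their 5'ss minus control differences ran from 0.06 to 0.27, the latter with a limma adjusted p of 0.995.

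Among the 18 genes for ligand processing and binding the median was 0.014, and 6 had an unadjusted p under 0.05 for PDGF-AA. Pcsk5, a proprotein convertase of the family that cleaves PDGF A and B chains, was at -0.33 with PDGF-AA (SE 0.061), lower in 6 of 6 within-replicate comparisons. Its limma adjusted p was 0.342, and 0.0783 with the block. It was also at 0.38 (SE 0.075) for 5'ss against control AMO, with a limma adjusted p of 0.513, or 0.127 with the block. Pcsk6, a related convertase, was higher in 6 of 6 at 0.34 (SE 0.133, limma adjusted p 1).

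Of 15 related class III receptor and VEGF family genes, 1 had an unadjusted p under 0.05 for PDGF-AA, and the median was -0.019. Pgf, placental growth factor, whose fold resembles the PDGF chains, was at -0.35 (SE 0.088), lower in 5 of 6 within-replicate comparisons, with a limma adjusted p of 0.614, or 0.0964 with the block. By AMO it was at -0.59 with control, -0.41 with pA and -0.06 with 5'ss. Vegfb had the highest change, at 0.11, and Vegfa was at 0.19 (SE 0.063) for 5'ss against control AMO, with a limma adjusted p of 0.995.

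The transcripts whose pattern over the 12 arrays was most like each member's were found by Pearson's r across 21789 clusters, as a description. The arrays share their groups and replicate differences, so a high r is not independent evidence of a link. For Pdgfd they were Hk2 (r = 0.96), which encodes hexokinase 2, Fam162a (0.95) and Gbe1 (0.95), the glycogen branching enzyme. These 3 were also among those named after the replicate means were removed. Their PDGF-AA changes were 0.50, 0.54 and 0.33 with control AMO, 0.56, 0.41 and 0.54 for pA and 0.03, 0.12 and -0.08 for 5'ss, in that order of genes. None of them passed in limma, and the smallest averaged adjusted p was 0.342 for Fam162a (0.0689 with the block).

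**Figure D4:**
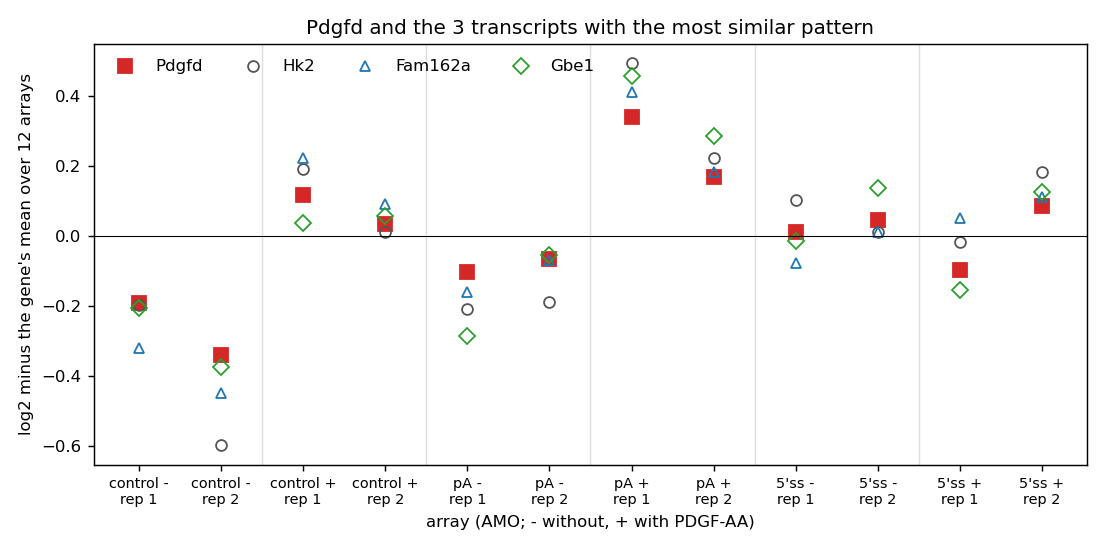
Log2 expression minus each gene's mean over 12 arrays (vertical axis) for Pdgfd (squares) and the 3 transcripts closest to it, Hk2 (circles), Fam162a (triangles) and Gbe1 (diamonds), on each array (horizontal axis). All 4 are lowest in control AMO without PDGF-AA replicate 2 and highest in pA AMO with PDGF-AA replicate 1.

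For Pdgfra the nearest patterns were Ints9 (r = 0.91), Rab40c (0.88) and Thrap3 (0.88), and for Pdgfrb they were Dchs1 (0.95), Axl (0.93), a receptor tyrosine kinase, and Bmp6 (0.92). Pdgfrl was nearest to Rcn3 (0.94), Tubb2a (0.93) and Fkbp7 (0.91), the first and last of them proteins of the endoplasmic reticulum. Pdgfa was nearest to Fxyd5 (0.93), Fxyd6 (0.93) and Anpep (0.91), and Pdgfc to Ggt5 (0.96), Steap3 (0.95) and Srpx (0.95). The dim Pdgfb was nearest to Slc13a3 (0.98), Tmem196 (0.97) and Hrh2 (0.95). With the replicate means removed, those still among the nearest 3 were Ints9 for Pdgfra, Dchs1 and Bmp6 for Pdgfrb, Fkbp7 for Pdgfrl, Ggt5 and Srpx for Pdgfc, and Slc13a3 and Tmem196 for Pdgfb. For Pdgfa none of the 3 stayed, and Chsy1 (0.94), Fgfr2 (0.93) and Rpl10 (0.93) took their place.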

How the data were processed

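RNA of 12 FAP cultures was measured on 12 arrays. The authors deposited log2 values from RMA, computed in the Affymetrix software Expression Console according to the submitters' processing notes (versions not given in the sources used here). RMA corrects background, quantile-normalizes and summarises probes. Array medians ran from 6.04 to 6.23, and the number of arrays limits the precision. Of 35556 transcript clusters, 21789 had exactly 1 gene symbol, 1621 several and 12146 were not listed. Gene identifiers of 21698 were found in RefSeq (GRCm38.p6), and 0 symbols changed.

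The 6 group means were modelled with limma 3.58.1 in R 4.3.3 to all 12 arrays (6 residual degrees of freedom), with Benjamini-Hochberg adjustment over 21789 clusters and a threshold of 0.05, for 16 comparisons. Only what passed is called risen or fallen. On simulated data for PDGF-AA averaged over AMOs, with 200 of 21789 clusters changed, it recovered 62.0% at a log2 size of 0.5, 96.0% at 1 and 99.5% at 2. The draws were independent between arrays, which the real arrays were not. Smaller sizes were not simulated, though the members' largest averaged PDGF-AA change was -0.25. Comparisons within single AMOs were not simulated either, so recovery of changes like the members' is not known.

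Replicate numbers recur in every group. Same-numbered arrays deviated together in all 15 pairs of groups (r = 0.20 to 0.61, criterion 0.1), and 12 of 12 arrays correlated best with their own number. The numbers were therefore taken to pair the samples, but only in the within-replicate comparisons and in the fit with the replicate block. The main limma fit, which gave every value not marked as from the block, ignored the pairing. The pairing is a hint in the values, since no label says what same-numbered cultures share. P-values measure the spread between these cultures.

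Members, gene lists and rules were chosen with earlier results of these data known. Named are the 7 members, the 3 patterns nearest to each (unnamed genes, small RNAs and olfactory receptors passed over) and, for each list, the smallest p for PDGF-AA and for 5'ss against control AMO and both extremes of the PDGF-AA change. Promoters are from RefSeq (GRCm38.p6), with entries for 4 of 7 members and none for Pdgfrb, Pdgfrl and Pdgfb. Alternatives were a dim filter, all clusters, median centring, repeated quantile normalization, trend and robust moderation, no moderation (added after the values were seen), array weights, fits to the compared groups alone, the replicate block and leaving out each array. Figures were drawn with Python 3.11.15 and matplotlib 3.10.9.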

Additional observations from a re-analysis of the deposited data

How the results depend on the processing

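Of 2345 member values over 21 alternative settings, 0 passed the threshold, 2239 kept their sign and 106 turned it. The turned values were 90 of 1344 with 1 array left out (up to 0.200 in size), 9 of 112 under median centring (up to 0.070) and 7 of 112 under repeated quantile normalization (up to 0.047), and 0 under the others. The smallest adjusted p of a member in limma was 0.214 with the replicate block, 0.362 with the dim filter and 0.37 with trend and robust moderation. The count of members called was 0 everywhere.

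Counts over all clusters were 0 in limma. With the replicate block, which pairs the arrays by number, they were 21 for PDGF-AA averaged over AMOs, 3 for 5'ss against control AMO averaged over PDGF-AA, 1 without PDGF-AA and 22 with it, and 6, 1 and 3 for pA against 5'ss AMO in the same order. The block changed no call of a member or listed gene. Trend and robust moderation gave 39 for PDGF-AA averaged over AMOs, 13 with control AMO, 7 and 6 for 5'ss against control AMO (averaged and with PDGF-AA) and 2 for pA against 5'ss averaged. There 1 listed gene passed for PDGF-AA, Igfbp7, a secreted binding protein (-0.13, limma adjusted p = 0.0344). Where PDGF-AA was present, 5'ss against control AMO gave 1 under median centring and 3 under repeated quantile normalization. Leaving out single arrays gave 0 to 1 for 5'ss against control AMO, averaged and with PDGF-AA, the 1 without either array of pA AMO without PDGF-AA. With 2 arrays a group, an array left alone in its group was assumed to vary like the others. The causes were not tested.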

Other observations

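Within each array Pdgfra minus Pdgfrb, a difference between genes that shows only unequal change, was 1.36 to 1.74 in the 8 arrays with control or pA AMO. In the 4 arrays with 5'ss AMO it was 1.83 and 1.94 without PDGF-AA and 1.92 and 1.91 with it, so these did not overlap the others. The pair was looked at after its values were seen. Pdgfra alone already did not overlap there, and Pdgfrb had its lowest group means there, so the difference is not separate evidence. The share of gene pairs that separate in this way was not counted.

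Between members, Pearson's r over the 12 arrays, given as a description of points that share groups and replicates, was lowest for Pdgfrb with Pdgfc (-0.81) and Pdgfrb with Pdgfa (-0.72). It was highest for Pdgfrl with Pdgfa (0.71). With the replicate means removed these were -0.80, -0.79 and 0.71, and Pdgfa with Pdgfc went from 0.62 to 0.78.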
